A study of Mus musculus with 60 samples.

Results

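Interleukin 1 (IL-1) and inflammasome genes were followed in mouse whole blood as 10 of the 49315 genes of the count tables. They were chosen by name and not by their values, though with earlier results of these data known. The 10 are Il1b, Il1rn, Il1r2, Il1rap, Il18, Nlrp3, Pycard, Casp1, Casp4 and Gsdmd. Each name matched 1 gene identifier, and all 10 had counts in every comparison. The study asked how blood transcripts respond to BIO 300, an oral powder of genistein made as an amorphous solid dispersion and developed as a radiation countermeasure, and to total-body irradiation (TBI). The 60 male CD2F1 mice, 5 to 6 weeks old at purchase, fell into 10 groups of 6 and were bled from the inferior vena cava. Vehicle mice and mice given BIO 300 at 50 (Low in the labels), 100 (Med) or 200 (High) mg/kg per dose received 12 doses over 6 days, and were bled 24 h after the last dose (Day 0) or 48 h after it (Day 1). Vehicle mice and 200 mg/kg mice made up the irradiated groups, which received 9.2 Gy of gamma radiation from a cobalt source on Day 0 and were bled 24 h later, on Day 1. Each library is 1 mouse, named below by its animal number, and the mice were housed 3 to a cage, with no cage given in the labels.

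IL-1 beta is made as an inactive precursor after a priming signal to myeloid cells and is cut to its active form by caspase-1. Caspase-1 is activated on an inflammasome, a complex in which a sensor such as NLRP3 recruits the adaptor ASC. The active cytokine signals through a receptor chain and a shared accessory chain, and its action is limited by a soluble antagonist that fills the receptor and by a decoy receptor that binds the cytokine without signalling. Cleaved gasdermin D forms pores through which IL-1 beta and IL-18 leave the cell. Transcript levels, the only quantity measured here, do not show cleavage, secretion or pore formation.

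In GRCm38, the build of the deposited counts, Il1b (ENSMUSG00000027398) lies at chr2:129364570-129371139 on the minus strand and Il1rn (ENSMUSG00000026981) at chr2:24336853-24351494 on the plus strand. Il1r2 (ENSMUSG00000026073) spans chr1:40074079-40125231, Il1rap (ENSMUSG00000022514) chr16:26581704-26730117 and Il18 (ENSMUSG00000039217) chr9:50554827-50581840, all on the plus strand. Nlrp3 (ENSMUSG00000032691) spans chr11:59541568-59566956 on the plus strand, and Pycard (ENSMUSG00000030793) chr7:127989708-127993867 on the minus strand. Casp1 (ENSMUSG00000025888) at chr9:5298517-5307265 and Casp4 (ENSMUSG00000033538) at chr9:5308828-5336783 are neighbours on the plus strand, and Gsdmd (ENSMUSG00000022575) lies at chr15:75862327-75867408, also on the plus strand. The counts of 5 members could share reads with an overlapping gene, since the strand setting of the counting is not given in the sources used here. Summed over the 60 mice, Il1b had 163887 counts and Il1bos, on the opposite strand, 2196. Il1r2 had 15110 counts, beside 3118 for Gm16894 on the opposite strand and 4490 for Gm37347 on the same strand. Il1rap had 53957 counts beside 1897 for Gm20319, and Pycard had 17045 beside 837 for Gm45205. Il18 is the least certain by depth, with 2425 counts in all beside 799 for Bco2 and 480 for Tex12.

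The 250 bases before a transcript start are given for the agonist Il1b, the antagonist Il1rn and the decoy receptor Il1r2, whose transcripts rose together after irradiation, and for the neighbouring caspase genes, of which Casp4 passed as higher after irradiation and Casp1 did not. Sequences are from RefSeq on GRCm38.p6, read along the gene's own strand and ending at the base before the start. Capitals mark letters that match 1 of 4 motifs searched on both strands: the NF-kB pattern GGNNTTTCC, the PU.1 core GAGGAA, the C/EBP pattern TTNNGNAA and the AP-1 pattern TGANTCA. The Il1b window at chr2:129371140-129371389 (minus strand) holds a C/EBP match whose leftmost base lies 91 bases before the start. Of 3 Il1rn windows, that at chr2:24345121-24345370 (plus strand) is given because it holds the most matches, an NF-kB match at 50 and C/EBP matches at 161, 65 and 64 bases before the start, the last pair overlapping each other. The Il1r2 window is chr1:40085843-40086092 (plus strand), the Casp1 window chr9:5298267-5298516 and the Casp4 window chr9:5308599-5308848 (both plus strand).
Il1b: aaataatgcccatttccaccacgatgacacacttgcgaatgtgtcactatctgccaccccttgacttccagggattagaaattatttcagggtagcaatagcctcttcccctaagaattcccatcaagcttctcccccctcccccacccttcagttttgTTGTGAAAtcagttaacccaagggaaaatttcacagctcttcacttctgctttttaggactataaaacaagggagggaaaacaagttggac
Il1rn: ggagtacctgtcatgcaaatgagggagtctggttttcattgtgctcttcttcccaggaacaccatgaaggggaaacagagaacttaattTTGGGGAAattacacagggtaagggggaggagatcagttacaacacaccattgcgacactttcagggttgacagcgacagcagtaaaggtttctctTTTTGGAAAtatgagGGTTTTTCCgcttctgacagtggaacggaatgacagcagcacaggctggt
Il1r2: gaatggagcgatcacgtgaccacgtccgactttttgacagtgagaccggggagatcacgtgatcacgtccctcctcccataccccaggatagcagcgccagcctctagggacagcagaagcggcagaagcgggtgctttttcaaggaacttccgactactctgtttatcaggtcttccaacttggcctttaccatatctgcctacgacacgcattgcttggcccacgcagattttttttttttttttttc
Casp1: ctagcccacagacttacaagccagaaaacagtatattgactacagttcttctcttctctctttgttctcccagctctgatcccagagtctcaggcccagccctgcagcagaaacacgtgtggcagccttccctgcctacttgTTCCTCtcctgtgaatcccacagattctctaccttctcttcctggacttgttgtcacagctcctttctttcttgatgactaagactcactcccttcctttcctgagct
Casp4: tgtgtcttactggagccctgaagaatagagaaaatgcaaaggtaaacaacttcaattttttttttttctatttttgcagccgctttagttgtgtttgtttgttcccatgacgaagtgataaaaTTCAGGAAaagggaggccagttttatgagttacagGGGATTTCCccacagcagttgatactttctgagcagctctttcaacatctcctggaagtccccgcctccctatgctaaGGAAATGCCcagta
The Casp1 window holds a PU.1 match at 108 bases before the start. The Casp4 window holds NF-kB matches at 92 and 14 and a C/EBP match at 127 bases before the start. None of the 4 patterns occurs in the Il1r2 window, which says only that these letters are absent from it. The Il1r2 window and the Il1rn window shown both lie inside the spans of their genes, past the first base. The Il1rn window at chr2:24336610-24336859, at the start of that gene, holds only an AP-1 match at 141 bases before the start. Among all 32851 windows of this length, 4.93% held the NF-kB pattern, 23.3% PU.1, 36.8% C/EBP and 6.75% AP-1, so that the C/EBP pattern in particular is common. In all, 9 members had 13 windows, and Gsdmd had none.

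Libraries held from 15099415 to 45589415 counts, with a median of 24877993.5. Levels are given as CPM, the counts of a gene scaled to a common library size, after scaling by the trimmed mean of M values (TMM), and tests are edgeR quasi-likelihood tests with Benjamini-Hochberg adjustment over all genes of a comparison, called at an adjusted p under 0.05. Scaling mattered. On Day 1 the median log2 fold change of all genes at 100 mg/kg was -0.38 with TMM and -1.76 with total counts, at 200 mg/kg it was -0.48 and -1.96, after irradiation of vehicle mice it was 0.09 and -0.28, and at 50 mg/kg on Day 0 it was 0.03 and 0.69. Lists of 8 marker genes per cell type, all measured, were averaged in each mouse as log2(CPM + 1). In blood, fewer cells of a type and less RNA per cell cannot be told apart. Liver transcripts marked 10 mice in 9 groups with over 100 CPM of Alb (albumin), all with odd animal numbers. Leaving them out changed the call of 14 of the 170 log2 fold changes tested, and these are given beside the results.

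At rest the agonist was the most abundant member per kilobase of exon. In vehicle mice on Day 1, Il1b stood at 26.3 ± 7.74 CPM per kb (SD, n = 6), Gsdmd at 7.32 ± 0.56 and Casp1 at 5.53 ± 0.61. The decoy receptor Il1r2, at 1.52 ± 0.33 CPM per kb, and the antagonist Il1rn, at 1.33 ± 0.20, were alike in level and far below the agonist. Nlrp3 stood at 3.62 ± 0.61 CPM per kb, Pycard at 3.07 ± 0.45 and Casp4 at 2.00 ± 0.38. Il18 stood at 1.44 ± 0.35 CPM per kb, and the mean of Il1rap lay between those of Il18 and Il1r2. After irradiation of vehicle mice, Nlrp3 reached 25.0 ± 11.3 CPM per kb, Il1r2 19.4 ± 7.72, Il1rap 10.5 ± 1.96 and Il1rn 9.48 ± 4.53, beside 199 ± 93.2 for Il1b.

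**Figure D1:**
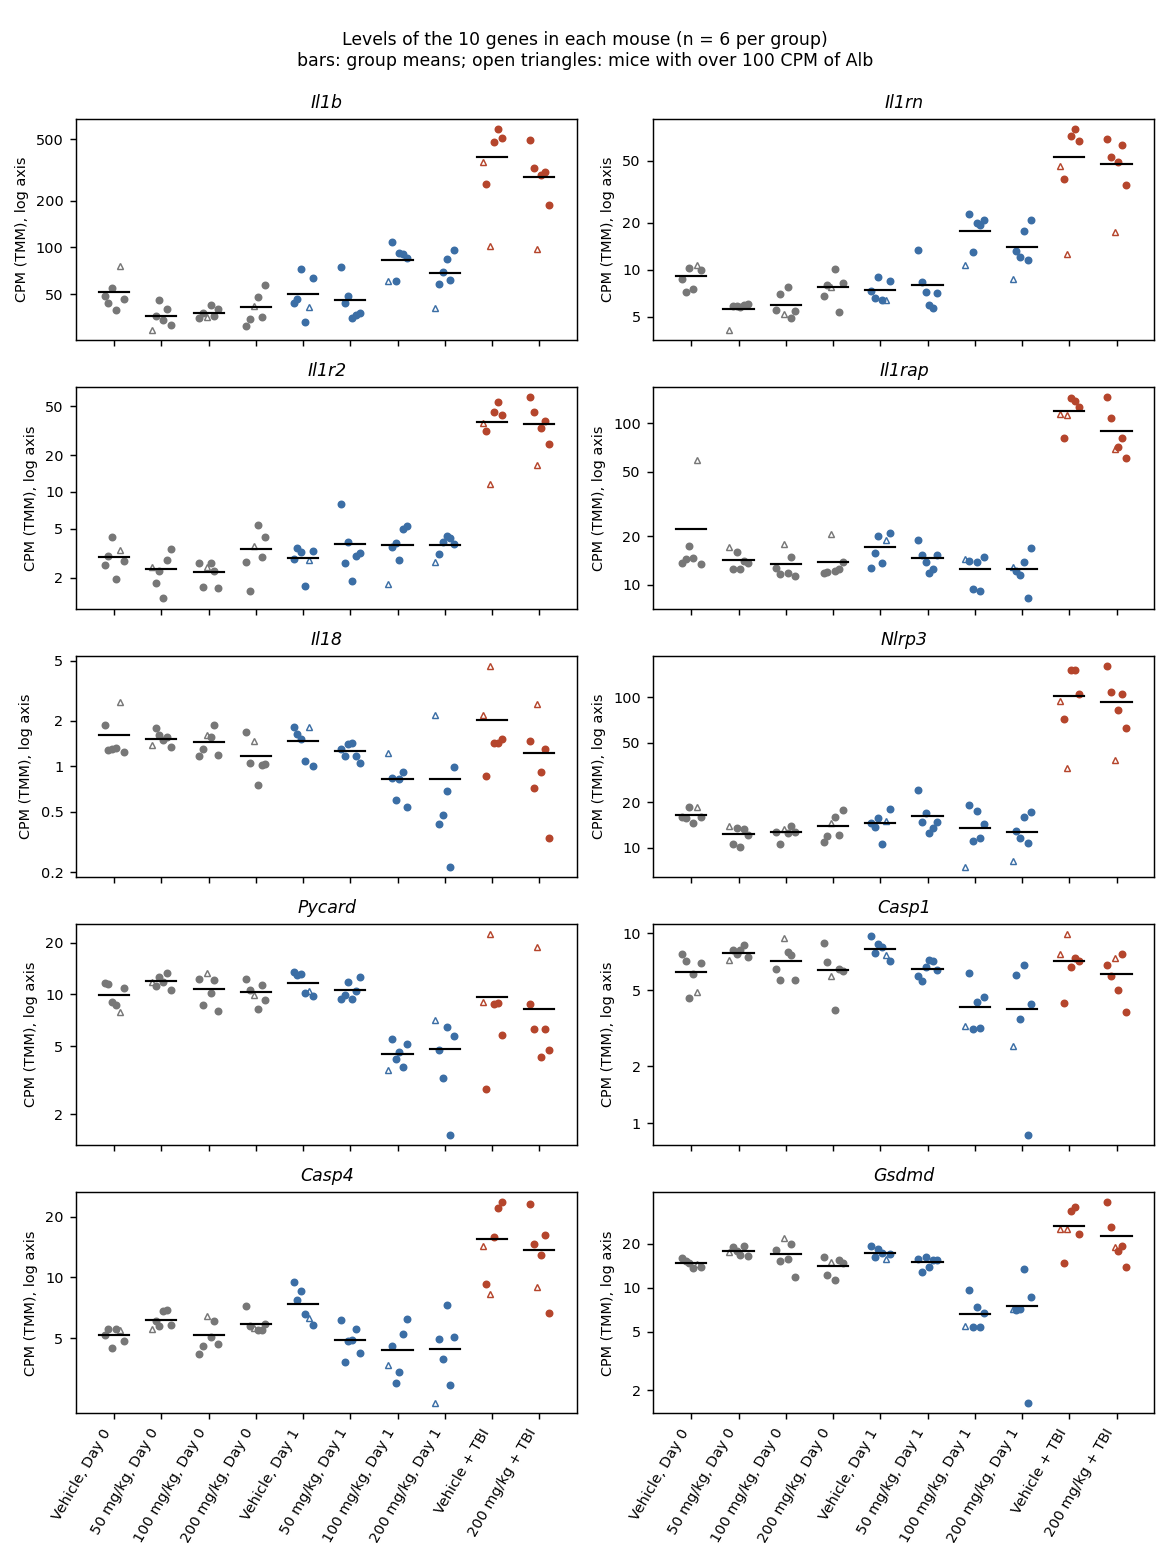
Level of each of the 10 genes in every mouse, as TMM-scaled CPM on a log axis, for the 10 groups of 6 mice (grey Day 0, blue Day 1, red irradiated, bars for group means, open triangles for mice with over 100 CPM of Alb). In the irradiated groups Il1b, Il1r2, Il1rap and Nlrp3 lie above all or nearly all unirradiated mice. Il1rn is also highest there by group mean, but its lowest irradiated mice lie within the ranges at 100 and 200 mg/kg on Day 1. The group means of Pycard, Casp1 and Gsdmd are lowest at 100 and 200 mg/kg on Day 1, on TMM and total-count scaling alike.

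Across the 10 groups the order of levels differed by role. For the agonist Il1b, mean CPM was highest in the irradiated vehicle mice and then the irradiated 200 mg/kg mice. Next came 100 and 200 mg/kg on Day 1, then the vehicle groups and 50 mg/kg on Day 1. The Day 0 groups of 200, 100 and 50 mg/kg came last, in that order. The only neighbours in the order of Il1b that differed by more than 1 SD were the irradiated 200 mg/kg mice and the 100 mg/kg mice of Day 1. For the antagonist Il1rn the order of groups at the top was the same, and 3 steps exceeded 1 SD: irradiated 200 mg/kg over 100 mg/kg on Day 1, 200 mg/kg on Day 1 over vehicle on Day 0, and vehicle on Day 1 over 100 mg/kg on Day 0. For the decoy receptor Il1r2, Il1rap and Nlrp3, 1 step alone exceeded 1 SD, from the irradiated groups to all others, and there the neighbouring ranges did not overlap. The other members did not share this order. For Il18 and Pycard no neighbours differed by more than 1 SD. For Casp1 the step was from irradiated 200 mg/kg mice down to 100 mg/kg on Day 1, for Gsdmd from 200 mg/kg on Day 0 down to 200 mg/kg on Day 1, and for Casp4 from irradiated 200 mg/kg mice down to vehicle on Day 1 and from 200 mg/kg on Day 0 down to vehicle on Day 0. With total counts, 54 of the 100 group means moved by more than their SD, so these orders belong to the TMM scale.

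Irradiation of vehicle mice raised 7 of the 10 members and lowered none on Day 1, where 24.4% of all 25146 genes tested were called higher. The IL-1 axis moved most: the agonist, its antagonist, the decoy receptor and the accessory chain all rose over 6-fold, together with the sensor Nlrp3. Casp4 and Gsdmd rose with smaller fold changes, and Il18, Pycard and Casp1 did not pass the test. With total counts 5 members passed, all higher, beside 15.3% of genes higher, and Casp4 and Gsdmd were lost.

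Il1b, the agonist, ranged from 33.2 to 72.6 CPM in vehicle mice on Day 1 (median 45.0) and from 103 to 580 CPM in irradiated vehicle mice (median 419). The groups did not overlap, and irradiated mouse 51, the mouse with the most Alb, was the lowest of its group. The fold change was 7.49 (log2 2.90 ± 0.38 SE, edgeR adjusted p = 8.0e-05), and 2.48 on the log2 scale with total counts. Without the mice over 100 CPM of Alb it was 3.17 on the log2 scale.

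Il1rn, which encodes the receptor antagonist, ranged from 6.39 to 9.01 CPM (median 6.95) before and from 12.5 to 79.9 CPM (median 56.3) after irradiation. Every irradiated mouse lay above every vehicle mouse, with mouse 51 again lowest. The rise was 7.03-fold (log2 2.81 ± 0.37, edgeR adjusted p = 7.4e-05), or 2.37 on the log2 scale with total counts.

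Il1r2, the decoy receptor, had the largest change of the 10. It went from 1.72 to 3.49 CPM in vehicle mice (median 3.03) to 11.6 to 54.6 CPM in irradiated ones (median 39.7). The groups were apart, and mouse 51 stood far below the other irradiated mice, which began at 31.3 CPM. The rise was 12.5-fold (log2 3.65 ± 0.34, edgeR adjusted p = 9.2e-06), and 3.20 on the log2 scale with total counts.

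Il1rap, the accessory chain shared by IL-1 family receptors, ranged from 12.6 to 21.0 CPM in vehicle mice (median 17.4) and from 81.0 to 143 CPM in irradiated mice (median 120). It rose 6.85-fold (log2 2.78 ± 0.19, edgeR adjusted p = 1.8e-06), with the tightest irradiated group of the 5 genes. Nlrp3, the inflammasome sensor, ranged from 10.7 to 18.2 CPM (median 14.9) before and from 33.9 to 151 CPM (median 100) after irradiation. Its rise was 6.82-fold (log2 2.77 ± 0.33, edgeR adjusted p = 3.8e-05). Neither gene had overlapping groups, and with total counts the log2 fold changes were 2.41 for Il1rap and 2.35 for Nlrp3.

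The downstream members behaved otherwise. Casp4, which encodes mouse caspase-11, the sensor of cytosolic lipopolysaccharide, ranged from 5.84 to 9.49 CPM (median 7.17) in vehicle mice and from 8.26 to 23.6 CPM (median 15.1) in irradiated mice, with overlap. Its log2 fold change was 1.05 ± 0.27 with TMM (edgeR adjusted p = 0.0075) and 0.62 with total counts (adjusted p = 0.13). Gsdmd, the pore former, ranged from 15.9 to 19.4 CPM (median 17.2) and from 14.9 to 36.0 CPM (median 25.2), again with overlap. Its log2 fold change was 0.58 ± 0.19 (edgeR adjusted p = 0.028), 0.21 with total counts (adjusted p = 0.55). The Gsdmd call was lost without vehicle mouse 26 (0.56) or 30 (0.57) and without irradiated mouse 52 (0.49) or 53 (0.46).

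Casp1, the caspase that cleaves the IL-1 beta precursor, ranged from 7.11 to 9.66 CPM in vehicle mice (median 8.18) and from 4.28 to 9.92 CPM in irradiated mice (median 7.24), a log2 fold change of -0.24 ± 0.18 (edgeR adjusted p = 0.30). Pycard, which encodes the adaptor ASC, went from 9.79 to 13.5 CPM (median 11.7) to 2.81 to 22.5 CPM (median 8.85), a log2 fold change of -0.32 ± 0.36 (adjusted p = 0.49). Its highest irradiated value was that of mouse 51. Without mouse 51 the log2 fold change of Pycard was -0.72 (adjusted p = 0.031), and without all mice over 100 CPM of Alb -0.81 (adjusted p = 0.013), so that this call rests on which mice are kept. Against vehicle mice of Day 0 it was -0.03 with all mice (adjusted p = 0.96) and -0.61 without those mice (adjusted p = 0.045). Il18, the other inflammasome-dependent cytokine, ranged from 1.00 to 1.83 CPM (median 1.58) and from 0.87 to 4.65 CPM (median 1.48), with mouse 51 again highest and a log2 fold change of 0.40 ± 0.36 (adjusted p = 0.37), which was -0.06 without the mice over 100 CPM of Alb (adjusted p = 0.85). At its depth, with as few as 13 counts in an irradiated mouse, small changes of Il18 were not detectable.

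Against vehicle mice of Day 0, the same irradiated mice again had 7 members higher and none lower, beside 19.6% of genes called higher. The log2 fold changes were 3.00 for Il1b, 2.66 for Il1rn, 3.75 for Il1r2, 2.52 for Il1rap, 2.73 for Nlrp3, 1.69 for Casp4 and 0.93 for Gsdmd, the last losing its call with total counts (0.77, edgeR adjusted p = 0.06). Vehicle mice themselves showed no called member between Day 0 and Day 1, where 0% of genes were called by edgeR. At an unadjusted p under 0.05 there were 4, Casp4 (log2 0.51), Casp1 (0.40), Gsdmd (0.24) and Il1rn (-0.30), beside 3007 of 24375 genes. DESeq2 called 2 members, both higher, beside 167 of the 24375 genes higher and 610 lower.

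**Figure D2:**
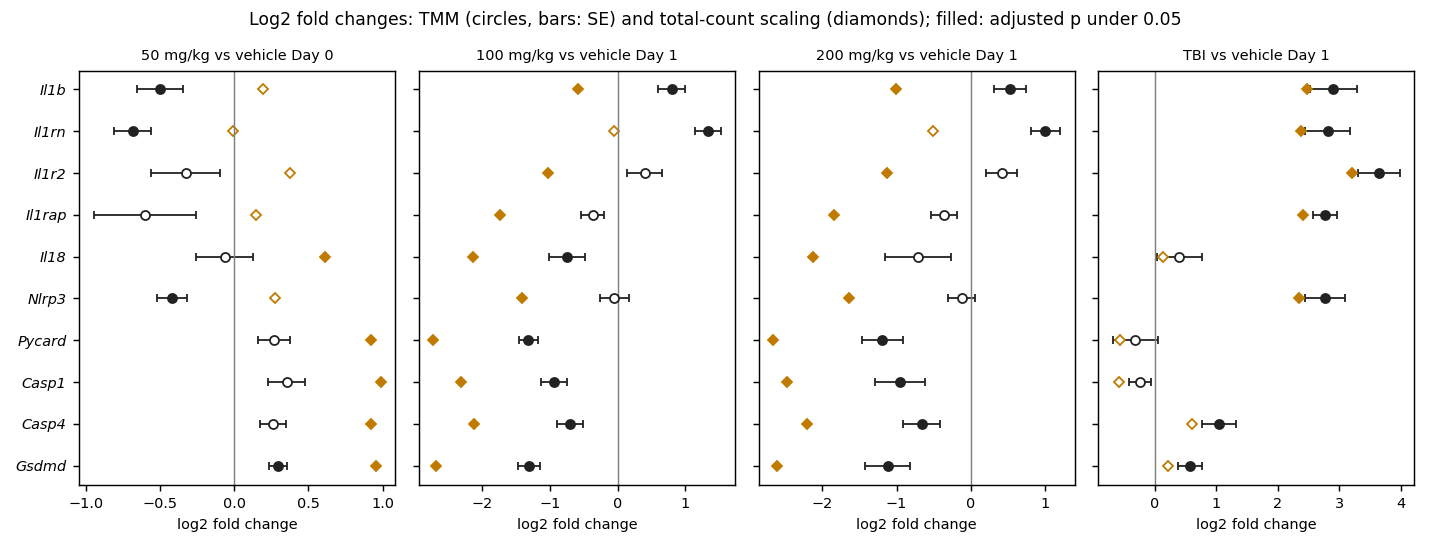
Log2 fold change of each of the 10 genes in 4 comparisons with vehicle mice (50 mg/kg on Day 0, 100 and 200 mg/kg on Day 1, and irradiation on Day 1), from edgeR. Circles with SE bars are TMM fits, diamonds total-count fits, and filled symbols have an adjusted p under 0.05. After irradiation Il1b, Il1rn, Il1r2, Il1rap and Nlrp3 are higher on both scalings, whereas on Day 1 of BIO 300 the rises of Il1b and Il1rn on TMM lie at or below 0 with total counts (Il1b at -0.58 and -1.01, Il1rn at -0.06 and -0.51).

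Markers of blood cells moved with these genes. The mean of the 8 neutrophil genes was 5.11 ± 0.19 in vehicle mice of Day 1 and 7.49 ± 0.71 after irradiation, a difference of 2.37 in log2(CPM + 1) with no overlap, and 1.97 with total counts. Platelet genes were 2.36 higher, B cell genes 3.55 lower and T cell genes 2.78 lower, each without overlap, while monocyte genes differed by -0.35 with overlap on TMM and by -0.78 without overlap with total counts. The total-count differences were 1.91 for platelet genes, with overlap, and -4.00 and -3.23 for B and T cell genes, without it. Hepatocyte genes ranged up to 10.42 in the irradiated vehicle group, up to 6.60 in vehicle mice of Day 1 and up to 9.30 in those of Day 0. Their median was 0.54 in the irradiated vehicle group and 0.44 in vehicle mice of Day 1. The tissue macrophage list had a median of 0.86 (highest 6.18) in the irradiated vehicle group. In vehicle mice of Day 1 its median was 0.83 (highest 2.09). The part of these shifts in the changes of the 10 genes was not tested.

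Set against the neutrophil genes of the same library, the differences of agonist and antagonist were small beside their fold changes. The difference between irradiated and vehicle mice of log2(CPM + 1), less the neutrophil mean, was 0.38 for Il1b (exact permutation test, adjusted p = 0.0849 over 130 tests), 0.11 for Il1rn (0.611), 0.19 for Nlrp3 (0.0849) and 0.36 for Il1rap (0.358). Il1r2 exceeded the neutrophil genes by 0.79 with no overlap (exact permutation test, adjusted p = 0.00938). The downstream members and Il18 fell behind them: Casp4 by -1.47, Gsdmd by -1.85, Il18 by -2.18, Casp1 by -2.58 and Pycard by -2.83, each at an adjusted exact permutation p of 0.0206 or less. The choice of neutrophil genes decided the sign for the upper members. Against Csf3r and Cxcr2 alone, receptors for granulocyte colony-stimulating factor and for chemokines, Il1b stood at -0.26, Il1rn at -0.53, Il1rap at -0.28 and Nlrp3 at -0.45, while Il1r2 stood at 0.15 (exact permutation test, adjusted p = 0.35). Against the 8 monocyte genes the difference was 3.11 for Il1b, 1.25 for Casp4 and 0.88 for Gsdmd, each without overlap, and 0.15 for Casp1 and -0.10 for Pycard, both with overlap.

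**Figure D3:**
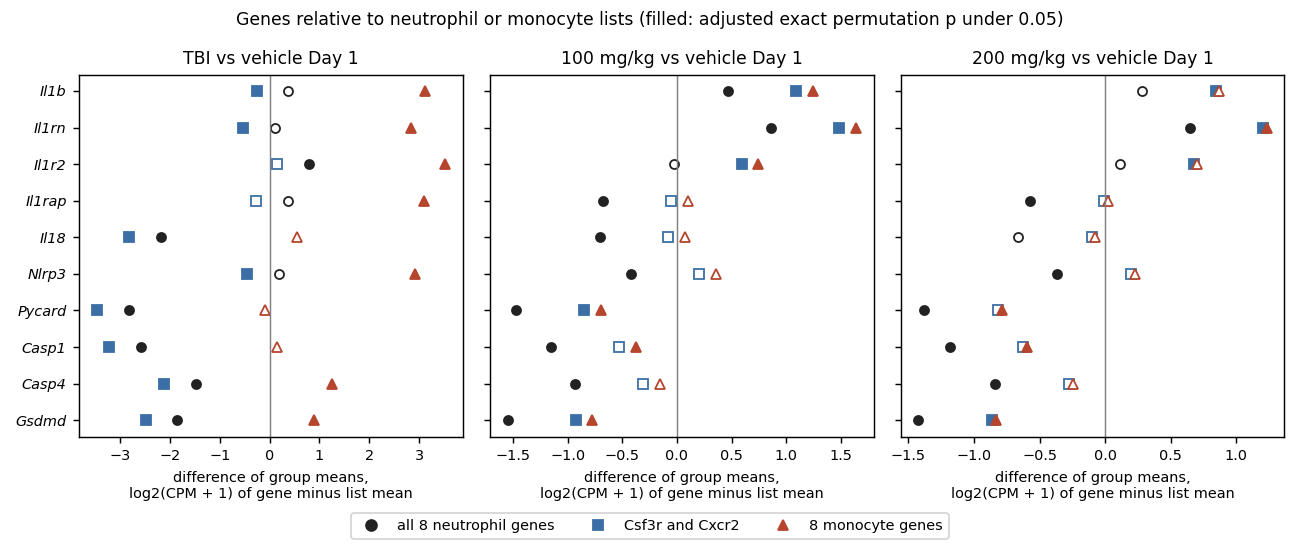
Difference between treated and vehicle mice of Day 1 in the level of each gene after subtraction of a marker list mean, in log2(CPM + 1), for irradiation, 100 mg/kg and 200 mg/kg. Circles use the 8 neutrophil genes, squares Csf3r and Cxcr2, triangles the 8 monocyte genes, and filled symbols have an adjusted exact permutation p under 0.05. After irradiation Il1r2 lies above and Pycard, Casp1, Casp4 and Gsdmd lie below the neutrophil genes, while Il1b, Il1rn, Il1rap and Nlrp3 change sign between the neutrophil list and Csf3r with Cxcr2.

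Ratios of counts within a library do not depend on scaling and set agonist, antagonist and decoy against each other. The log2 ratio of Il1rn to Il1b ranged from -3.01 to -2.36 (median -2.75) in vehicle mice of Day 1 and from -3.03 to -2.74 (median -2.89) after irradiation. The means, -2.72 ± 0.23 and -2.88 ± 0.11 (SD, n = 6), differed by -0.15 (exact permutation test, p = 0.18, adjusted p = 0.26 over 52 tests), which is within the spread between mice. Against vehicle mice of Day 0 the ratio was lower by -0.39 (exact permutation test, adjusted p = 0.0225).

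The decoy receptor outpaced both. The log2 ratio of Il1r2 to Il1b ranged from -4.48 to -3.72 (median -4.09) in vehicle mice and from -3.56 to -3.04 (median -3.34) after irradiation, without overlap, a difference of 0.77 (exact permutation test, p = 0.0022, adjusted p = 0.0125). That p is the smallest that 924 arrangements allow. The log2 ratio of Il1rn to Il1r2 ranged from 0.92 to 1.88 (median 1.35) and from 0.11 to 0.67 (median 0.44), again without overlap, a difference of -0.93 (exact permutation test, adjusted p = 0.0125). Without the mice over 100 CPM of Alb these differences were 0.77 and -0.86, and with fewer mice the adjusted exact permutation p was 0.059 for both. The ratio of Casp4 to Casp1 ranged from -0.35 to -0.03 (median -0.16) in vehicle mice and from -0.26 to 1.72 (median 1.17) after irradiation, a difference of 1.22 on the log2 scale (exact permutation test, adjusted p = 0.0265).

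**Figure D4:**
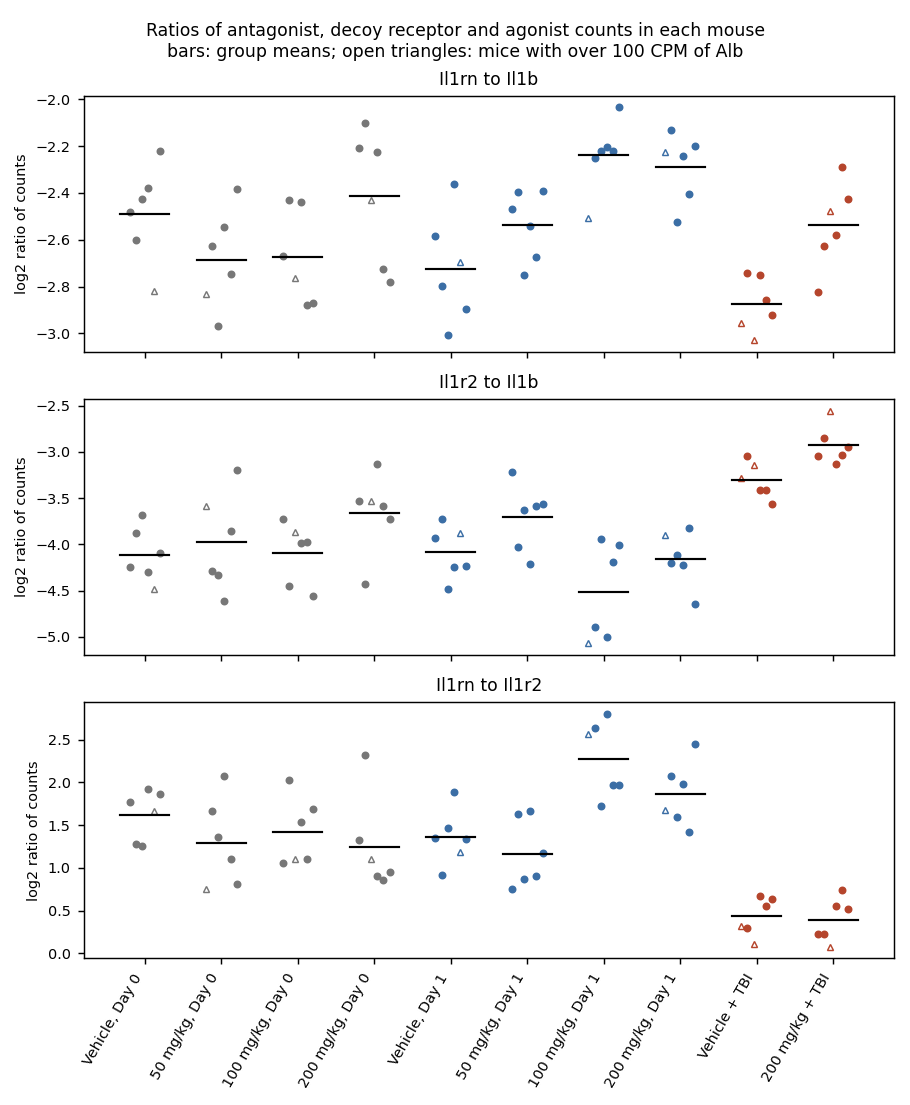
Log2 ratio of counts in each mouse for Il1rn to Il1b, Il1r2 to Il1b and Il1rn to Il1r2 in the 10 groups, with bars for group means. The ratio of Il1r2 to Il1b is higher and that of Il1rn to Il1r2 lower in the irradiated vehicle mice than in vehicle mice of Day 1, without overlap, and the ratio of Il1rn to Il1b is highest, at means of -2.24 and -2.29, in the 100 and 200 mg/kg mice of Day 1.

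BIO 300 alone gave different calls on the 2 days. On Day 0, at 50 mg/kg, the agonist, the antagonist and Nlrp3 were lower and Gsdmd was higher, 1 member up beside 4.21% of all genes and 3 down beside 9.87%. These directions belong to TMM. With total counts 5 members were higher, Gsdmd, Pycard, Casp1, Casp4 and Il18, and none lower, beside 49.4% of genes higher and 3.61% lower, so that these 5 of 10 are near the share of all genes.

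Il1rn ranged from 7.24 to 10.7 CPM in vehicle mice of Day 0 (median 9.33) and from 4.10 to 6.05 CPM at 50 mg/kg (median 5.83), without overlap. Its log2 fold change was -0.68 ± 0.13 (edgeR adjusted p = 0.0038) with TMM and -0.01 with total counts (adjusted p = 0.97). Il1b ranged from 39.5 to 76.0 CPM (median 47.6) and from 29.3 to 45.9 CPM (median 35.0), with overlap, and its highest vehicle mouse was mouse 17, which had over 100 CPM of Alb. Its log2 fold change was -0.50 ± 0.15 (edgeR adjusted p = 0.048) with TMM and 0.20 with total counts (adjusted p = 0.33). The Il1b call held in 3 of the 12 fits that left out a mouse, those without mouse 3, 14 or 16, and the log2 fold change was -0.37 without mouse 17. It was -0.31 without the mice over 100 CPM of Alb (adjusted p = 0.091).

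Nlrp3 ranged from 14.7 to 18.7 CPM (median 16.1) in vehicle mice of Day 0 and from 10.2 to 14.0 CPM (median 12.8) at 50 mg/kg. The groups did not overlap with TMM, at a log2 fold change of -0.42 ± 0.10 (edgeR adjusted p = 0.015), and with total counts the value was 0.28 (adjusted p = 0.16). Gsdmd ranged from 13.8 to 16.0 CPM (median 14.6) and from 16.5 to 19.5 CPM (median 17.7), without overlap, and was higher on both scalings, by 0.29 ± 0.06 with TMM (edgeR adjusted p = 0.0077) and 0.96 with total counts. Without vehicle mouse 13, Casp1 also passed (0.42), and without vehicle mouse 17, Casp4 (0.27), which also passed without the mice over 100 CPM of Alb (0.30, adjusted p = 0.043). The neutrophil list was 0.31 lower, the platelet list 1.02 lower and the erythroid list 1.65 lower than in vehicle mice with TMM, and the B and T cell lists 0.39 and 0.48 higher, all with overlap. With total counts the neutrophil list was 0.30 higher, the platelet list 0.35 lower and the erythroid list 0.98 lower, with overlap, and the B cell list was 1.06 higher, without it. Their part was not tested. Relative to the neutrophil list, Pycard (0.56), Casp1 (0.63), Casp4 (0.52) and Gsdmd (0.58) were higher and Il1rn lower (-0.29, exact permutation test, adjusted p = 0.0245).

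No member was called at 100 or 200 mg/kg on Day 0, where edgeR called 0% of genes at each dose. Among members, 3 at 100 mg/kg had an unadjusted p under 0.05, Il1b (log2 -0.44), Il1rn (-0.59) and Nlrp3 (-0.38), with adjusted p-values of 1.00, and at 200 mg/kg none had. Over all genes, 726 of 24000 at 100 mg/kg and 2145 of 23795 at 200 mg/kg had an unadjusted p under 0.05. DESeq2 called 0 members at both doses. The comparisons of the 3 doses share the same 6 vehicle mice, and the log2 fold change of Il1rn was -0.68, -0.59 and -0.22 from the lowest dose to the highest.

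On Day 1, with TMM, Il1b and Il1rn went in the opposite direction to the adaptor, the caspases and the pore former at 100 and 200 mg/kg. With TMM the antagonist Il1rn and the agonist Il1b rose and Pycard, Casp1, Casp4 and Gsdmd fell at both doses, and Il18 fell at 100 mg/kg. This made 2 members higher and 5 lower at 100 mg/kg, beside 25.0% and 40.6% of all genes, and 2 higher and 4 lower at 200 mg/kg, beside 23.6% and 39.9%. The counts of members are thus near the shares of all genes. With total counts 9 members were lower and none higher at each dose, all but Il1rn, beside 68.5% and 71.2% of genes lower. The falls of Pycard, Casp1, Casp4 and Gsdmd thus had 1 direction on both scalings, and the rises of Il1b and Il1rn did not. The median of all genes was also below 0 on both scalings. With TMM and total counts in turn it was -0.38 and -1.76 at 100 mg/kg, and -0.48 and -1.96 at 200 mg/kg.

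Il1rn ranged from 6.39 to 9.01 CPM in vehicle mice of Day 1, from 10.7 to 22.7 CPM at 100 mg/kg (median 19.7) and from 8.72 to 21.0 CPM at 200 mg/kg (median 12.6). It rose 2.52-fold at 100 mg/kg (log2 1.33 ± 0.19, edgeR adjusted p = 2.9e-05), without overlap, and 2.01-fold at 200 mg/kg (log2 1.01 ± 0.20, adjusted p = 0.00055), where the lowest treated mouse, 43, fell below the highest vehicle mouse. With total counts the log2 fold changes were -0.06 (adjusted p = 0.83) and -0.51 (adjusted p = 0.051).

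Il1b ranged from 60.9 to 108 CPM at 100 mg/kg (median 88.2) and from 40.9 to 96.4 CPM at 200 mg/kg (median 65.6), beside 33.2 to 72.6 CPM in vehicle mice, with overlap at both doses. It rose 1.74-fold at 100 mg/kg (log2 0.80 ± 0.20, edgeR adjusted p = 0.0033) and 1.44-fold at 200 mg/kg (log2 0.53 ± 0.22, adjusted p = 0.045). The call at 200 mg/kg was lost without vehicle mouse 25 (0.49), 26 (0.44), 28 (0.44), 29 (0.49) or 30 (0.54) and without treated mouse 45 (0.53), 46 (0.45) or 48 (0.40), so it held in 4 of 12 such fits. With total counts the log2 fold changes were -0.58 and -1.01. Relative to the median of all genes, the TMM change of Il1b was 1.18 at 100 mg/kg and that of Il1rn 1.71. That median was below 0, so the same step makes the falls of other members smaller.

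The decoy receptor did not follow. Il1r2 ranged from 1.78 to 5.24 CPM at 100 mg/kg (median 3.71) and from 2.70 to 4.40 CPM at 200 mg/kg (median 3.85), beside a vehicle median of 3.03, with log2 fold changes of 0.40 (edgeR adjusted p = 0.18) and 0.41 (adjusted p = 0.097). It passed without treated mouse 37 at 100 mg/kg (0.56) and without treated mouse 43 at 200 mg/kg (0.50), and at both doses without the mice over 100 CPM of Alb (0.56, adjusted p = 0.034, and 0.49, adjusted p = 0.048), and with total counts it was lower, by -1.03 and -1.13. Il1rap had log2 fold changes of -0.37 (adjusted p = 0.073) and -0.36 (adjusted p = 0.09), and passed without vehicle mouse 25 at 100 mg/kg (-0.44) and without vehicle mouse 25 (-0.43) or treated mouse 48 (-0.46) at 200 mg/kg. Nlrp3 had log2 fold changes of -0.05 (adjusted p = 0.85) and -0.12 (adjusted p = 0.59) with TMM, and -1.42 and -1.64 with total counts.

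Within libraries, the log2 ratio of Il1rn to Il1b ranged from -2.51 to -2.03 (median -2.22) at 100 mg/kg and from -2.52 to -2.13 (median -2.23) at 200 mg/kg. It exceeded that of vehicle mice of Day 1 by 0.48 (exact permutation test, p = 0.0043, adjusted p = 0.0205) and by 0.44 (p = 0.0065, adjusted p = 0.0225). Without the mice over 100 CPM of Alb the differences were 0.54 and 0.43, at adjusted exact permutation p-values of 0.0459 and 0.0774. The log2 ratio of Il1rn to Il1r2 rose by 0.92 at 100 mg/kg (exact permutation test, adjusted p = 0.0205) and differed by 0.51 at 200 mg/kg (adjusted p = 0.0889). The ratio of Il1r2 to Il1b differed by -0.43 (exact permutation test, adjusted p = 0.204) and -0.07 (adjusted p = 0.725).

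Pycard, Gsdmd, Casp1 and Casp4 fell at both doses. Pycard ranged from 9.79 to 13.5 CPM in vehicle mice of Day 1, from 3.64 to 5.48 CPM at 100 mg/kg (median 4.41) and from 1.52 to 7.07 CPM at 200 mg/kg (median 5.23), without overlap at either dose. It fell by 1.32 on the log2 scale at 100 mg/kg (SE 0.15, edgeR adjusted p = 3.2e-06) and by 1.19 at 200 mg/kg (SE 0.27, adjusted p = 0.0017). Gsdmd ranged from 15.9 to 19.4, from 5.39 to 9.70 (median 6.11) and from 1.63 to 13.6 CPM (median 7.18), also without overlap. Its log2 fold changes were -1.31 ± 0.16 (edgeR adjusted p = 6.8e-06) and -1.12 ± 0.30 (adjusted p = 0.0051).

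Casp1 ranged from 7.11 to 9.66 CPM in vehicle mice, from 3.12 to 6.19 CPM at 100 mg/kg (median 3.79) and from 0.87 to 6.84 CPM at 200 mg/kg (median 3.88), without overlap. Its log2 fold changes were -0.94 ± 0.19 (edgeR adjusted p = 0.00057) and -0.96 ± 0.33 (adjusted p = 0.022). Treated mouse 47 was the lowest mouse at 200 mg/kg for Pycard, Gsdmd, Casp1 and Il18. Casp4 overlapped its vehicle group, at 3.00 to 6.24 CPM (median 4.14) and 2.38 to 7.33 CPM (median 4.44), with log2 fold changes of -0.70 ± 0.19 (adjusted p = 0.0052) and -0.66 ± 0.25 (adjusted p = 0.031). At 200 mg/kg its call was lost without vehicle mouse 25 (-0.58) or 27 (-0.62) and without treated mouse 45 (-0.62) or 47 (-0.57). Il18 had log2 fold changes of -0.75 ± 0.27 (adjusted p = 0.024) at 100 mg/kg, lost without vehicle mouse 25 (-0.69) or 29 (-0.67), and -0.71 (adjusted p = 0.17) at 200 mg/kg, where it passed without treated mouse 43 (-1.29) and without the mice over 100 CPM of Alb (-1.19, adjusted p = 0.0088). As few as 2 counts lay behind a value of Il18 at 200 mg/kg.

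With total counts the falls were larger, at -2.73 and -2.67 for Pycard, -2.69 and -2.61 for Gsdmd, -2.32 and -2.47 for Casp1 and -2.13 and -2.21 for Casp4. Of these genes, Casp4 lay nearest the median of all genes, which was -1.76 and -1.96 with total counts. With TMM Casp4 stood at -0.70 and -0.66, beside medians of -0.38 and -0.48. In these mice the platelet list was 3.00 and 3.13 and the erythroid list 1.82 and 2.07 higher than in vehicle mice, the B cell list 1.62 and 1.83 lower and the T cell list 1.88 and 2.02 lower, at 100 and 200 mg/kg in turn. The neutrophil list was 0.27 and 0.16 higher with TMM, with overlap, and 0.91 and 1.13 lower with total counts, without overlap. The monocyte list was 0.51 and 0.43 lower with TMM, with overlap, and 1.73 lower at both doses with total counts, without overlap. On that scale the platelet list was 1.66 and 1.67 and the erythroid list 0.48 and 0.61 higher, without overlap. The part of these shifts in the changes of the members was not tested.

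Relative to the neutrophil list, Il1rn was higher by 0.86 at 100 mg/kg, without overlap, and by 0.64 at 200 mg/kg, and Il1b by 0.47 (exact permutation test, adjusted p = 0.0276) and 0.28 (adjusted p = 0.124). Pycard was lower by -1.48 and -1.38, Gsdmd by -1.55 and -1.42, Casp1 by -1.15 and -1.19 and Casp4 by -0.93 and -0.84. Relative to the monocyte list, Pycard was lower by -0.70 and -0.79 and Gsdmd by -0.77 and -0.83, each without overlap (exact permutation test, adjusted p = 0.0091), whereas Casp4 differed by -0.15 (adjusted p = 0.608) and -0.25 (adjusted p = 0.531).

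The doses of 100 and 200 mg/kg on Day 1 were not told apart: no member was called between them, 0% of genes were called by edgeR, 0 members had an unadjusted p under 0.05 and DESeq2 called 0. At 50 mg/kg on Day 1 no member was called either, beside 0.00829% of genes. At an unadjusted p under 0.05 there were 3, Casp4 (log2 -0.58, edgeR adjusted p = 0.096), Casp1 (-0.34, adjusted p = 0.11) and Gsdmd (-0.20, adjusted p = 0.18), beside 4458 of 24118 genes. DESeq2 called 2, both lower, beside 3.57% of genes higher and 1.43% lower.

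The change of the BIO 300 effect between Day 0 and Day 1 was tested directly. At 50 mg/kg the Day 1 effect exceeded the Day 0 effect for 2 members and fell below it for 3, beside 10.5% and 7.04% of genes. The counts were 3 and 4 at 100 mg/kg, beside 20.7% and 33.5%, and at 200 mg/kg 2 and 4, beside 18.7% and 30.2%. The 100 mg/kg differences were 1.93 for Il1rn (edgeR adjusted p = 1.2e-06), 1.23 for Il1b, 0.82 for Il1r2, -0.70 for Casp4, -1.15 for Casp1, -1.44 for Pycard and -1.54 for Gsdmd on the log2 scale. With total counts none was higher, and 5, 7 and 8 members were lower at the 3 doses in turn, beside 48.9%, 60.0% and 57.8% of genes. Without the mice over 100 CPM of Alb, Il1rn at 50 mg/kg (0.67, adjusted p = 0.055) and Casp1 at 200 mg/kg (-0.86, adjusted p = 0.053) no longer passed, and Il18 at 100 mg/kg did (-0.83, adjusted p = 0.04).

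In irradiated mice, BIO 300 at 200 mg/kg left no member called against irradiated vehicle mice. There edgeR called 0% of genes, 0 members had an unadjusted p under 0.05, and DESeq2 called 0. Il1b ranged from 97.8 to 489 CPM (median 301) with the drug and from 103 to 580 CPM (median 419) without it, a log2 fold change of -0.48 ± 0.42. For Il1rn it was -0.19 ± 0.40, for Il1r2 -0.09 ± 0.35 and for Il1rap -0.47 ± 0.23. The groups overlapped for all 10 members, and mice 51 and 57, with the most Alb in each group, were the lowest for Il1b, Il1rn and Il1r2.

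Ratios separated these groups more than levels did. The log2 ratio of Il1rn to Il1b ranged from -2.82 to -2.29 (median -2.53) in irradiated 200 mg/kg mice, a mean of -2.54 ± 0.18 against -2.88 ± 0.11 in irradiated vehicle mice, a difference of 0.34 (exact permutation test, p = 0.0065, adjusted p = 0.0225). That of Il1r2 to Il1b ranged from -3.13 to -2.55 (median -2.99), higher by 0.38 (exact permutation test, adjusted p = 0.0225). Both pairs of groups overlapped in part. Without the mice over 100 CPM of Alb the differences were 0.27 and 0.36, at adjusted exact permutation p-values of 0.138 and 0.0774. The ratio of Il1rn to Il1r2 differed by -0.04 (exact permutation test, adjusted p = 0.783).

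Irradiation of 200 mg/kg mice, set against unirradiated 200 mg/kg mice of Day 1, raised 7 members and lowered none, beside 17.6% of genes higher. The log2 fold changes were 1.99 ± 0.34 for Il1b, 1.71 ± 0.32 for Il1rn, 3.23 ± 0.30 for Il1r2 (edgeR adjusted p = 3.1e-05), 2.77 for Il1rap, 2.80 for Nlrp3, 1.58 for Casp4 and 1.53 for Gsdmd. With total counts 9 members were higher, beside 46.5% of genes. The ratio of Il1r2 to Il1b was again higher, by 1.23, and that of Il1rn to Il1r2 lower, by -1.47, both without overlap (exact permutation test, adjusted p = 0.0125). Against unirradiated vehicle mice of Day 1, which the other irradiation comparison also used, 6 members were higher and 1 lower, beside 25.2% and 24.1% of genes. Il1b was 5.66-fold, Il1rn 6.47-fold, Il1r2 12.4-fold, Il1rap 5.19-fold, Nlrp3 6.32-fold and Casp4 1.84-fold higher, the last at a log2 fold change of 0.88 with TMM and 0.28 with total counts (edgeR adjusted p = 0.52). Casp1 was lower by -0.45 (adjusted p = 0.04), a call that DESeq2 and 4 other settings did not make. Pycard, at -0.55 with all mice (adjusted p = 0.15), passed as lower without the mice over 100 CPM of Alb (-0.95, adjusted p = 0.0003).

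Whether the irradiation effects differed with and without the drug depended on the settings. With all mice and TMM the interaction called 0 of 10 with edgeR, beside 33.9% of all genes. DESeq2 also called 0, beside 20.1% of genes higher and 14.2% lower. Beside 11820 of 26875 genes, 2 members had an unadjusted p under 0.05. These were Il1rn, at -0.97 ± 0.46 (edgeR adjusted p = 0.10), and Gsdmd, at 1.07 ± 0.44 (adjusted p = 0.063). Without the mice over 100 CPM of Alb 3 passed, Il1rn at -1.15 (adjusted p = 0.0025), Il1b at -0.92 (adjusted p = 0.034) and Pycard at 1.42 (adjusted p = 0.0075). In that fit 33.3% of all genes were called higher and 16.5% lower. With total counts 6 passed, beside 46.4% of genes higher and 3.03% lower, and Il1rn and Il1b, at 0.19 and 0.40, did not. A fit of all 60 mice called 4, 3 higher and 1 lower, beside 25.6% of genes higher and 14.4% lower. These 4 of 10 are near the share of all genes.

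Across all 60 mice Il1b went with its antagonist, its decoy receptor and Nlrp3. Over log2(CPM + 1) values, which share library, depth and scaling, Pearson's r of Il1b was 0.98 with Il1rn, 0.95 with Il1r2 and 0.94 with Nlrp3. The 12 irradiated mice stand apart from the rest, and over the 48 unirradiated mice the values were 0.92, 0.61 and 0.43. Pycard and Gsdmd had r = 0.95 in the unirradiated mice, Casp1 and Gsdmd 0.91, and Pycard and Casp1 0.86. In these 48 mice Pycard was negative with Il1rn (r = -0.71), Il1b (-0.63) and Il1r2 (-0.32), and positive with Il1rap (0.30) and Nlrp3 (0.21). Among unirradiated groups, those at 100 and 200 mg/kg on Day 1 had the highest mean Il1rn and the lowest mean Pycard with TMM. Whether the r values hold within groups, or with total counts in the 48 mice, was not tested. Over all 60 mice Il1rn and Pycard had r = -0.45 with TMM and 0.01 with total counts. Over all 60 mice Il1b and Pycard had r = -0.37 with TMM and 0.13 with total counts, and Casp4 was closer to Nlrp3 (0.86) than to Casp1 (0.44).

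Among 6738 genes with a mean of at least 10 CPM, those most like Il1b over the 60 mice were Tpd52 (r = 0.98), Tnfaip2, Arg2 (arginase 2), Il1rn and Marcks, the last at 0.98. Those most like Il1rn were Tpd52, S100a9, Il1b, Marcks and Trem1, from 0.98 down to 0.97. S100a9 encodes a calprotectin subunit of neutrophils and Trem1 an activating receptor of myeloid cells. Those most like Il1r2 were Hdc (histidine decarboxylase), Asprv1, Siglece, Gcnt2 and P2ry13, from 0.98 down to 0.975. The agonist and antagonist thus shared 2 of their 5 nearest genes besides each other, and the decoy receptor shared none with them. The r values listed span a narrow range, so a place among the first 5 is a fine distinction. It also depends on scaling: with total counts the r of Tpd52 was 0.96 with Il1b and 0.92 with Il1rn. Nlrp3, looked up after its values were seen, was most like the neutrophil receptor Csf3r (r = 0.99).

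The 42 further genes of the pathway, listed under 44 symbols because Il36g and Dfna5 are other names of Il1f9 and Gsdme, were all tested. After irradiation of vehicle mice on Day 1, 23 rose and 9 fell, beside 24.4% and 22.4% of all genes, with a median log2 fold change of 0.88 beside 0.09 over all genes. The rising genes included the other IL-1 agonist Il1a (log2 1.59, edgeR adjusted p = 0.0035), the signalling receptor Il1r1 (2.08), the IL-36 gamma gene Il1f9 (2.44) and the IL-18 inhibitor Il18bp (1.35). The receptor adaptor Myd88 (1.73) and its kinase Irak4 (1.01) rose, as did Tollip (1.99) and Irak3 (0.82), both brakes on this signalling. Among sensors and effectors, Nlrp12 (2.72), Nlrp1b (1.90) and Mefv (2.34), which encodes pyrin, rose, as did Ninj1 (2.67), whose product ruptures the membrane of dying cells. The sensors Nlrc4 (-1.68) and Aim2 (-1.18) fell, as did the inhibitory receptor Sigirr (-1.54) and the IL-18 receptor chain Il18r1 (-1.12), while the other IL-18 receptor chain, Il18rap, rose (1.41).

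At 100 mg/kg on Day 1, 13 of the 42 rose and 20 fell, beside 25.0% and 40.6% of all genes, and at 200 mg/kg 12 rose and 21 fell, beside 23.6% and 39.9%, with medians of -0.44 and -0.40 beside -0.38 and -0.48 over all genes. Ninj1 (2.88 and 2.78), Nlrp6 (3.01 and 2.96), Tollip (2.33 and 2.42), Il1a (1.69 and 1.70), Il1r1 (1.66 and 1.37) and Il1rl1 (1.74 and 1.74), the IL-33 receptor, rose on the log2 scale with TMM. P2rx7 (-2.26 and -1.67), the ATP-gated channel upstream of NLRP3, and Naip6 (-1.89 and -1.49) and Naip5 (-1.50 and -1.28), sensors of bacterial flagellin, fell, as did Sigirr (-1.84 and -1.64), Mefv (-1.36 and -1.25) and Gsdme (-1.08 and -0.92). Card9 (2.01 after irradiation, -1.53 and -1.58 here), Mefv and Gsdme thus passed in opposite directions in irradiated and in treated mice, against the same vehicle mice. At 50 mg/kg on Day 0, 4 of the 42 rose and 10 fell, beside 4.21% and 9.87% of all genes, among the latter Ninj1 (-0.77), Il1f9 (-0.68) and Tollip (-0.56). All values of the 42 genes are from TMM, and their directions with total counts were not looked up. From TMM to total counts, the median of all genes moved from 0.03 to 0.69 at 50 mg/kg on Day 0. On Day 1 it moved from -0.38 to -1.76 at 100 mg/kg and from -0.48 to -1.96 at 200 mg/kg.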

How the data were processed

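RNA was taken from whole blood of 60 mice, 10 groups of 6, with groups from the labels and doses and times from the study's methods. The deposited count tables hold whole-number counts per gene, which the authors made without normalization, and the submitters' processing notes name Trimmomatic 0.36, STAR 2.5.2b, Subread 1.5.2, DESeq2 and GRCm38. The labels give poly(A) selection and the study's methods a stranded total RNA kit with ribosomal and globin RNA removed, so which molecules were sequenced is uncertain. The fold changes and p-values that the authors deposited with DESeq2 were not used, and their tables gave gene names only. RefSeq gave promoters, on GRCm38.p6.

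Each comparison was fitted with edgeR 4.0.16 (R 4.3.3, limma 3.58.1) on its own mice, TMM, genes with at least 10 counts summed over the mice, and Benjamini-Hochberg adjustment over all genes at 0.05. Interactions used 4 groups. DESeq2 1.42.0 was the other tool. Ratios added 1 count to each gene, or 10 as an alternative, and exact permutation tests (2-sided) were run with scipy 1.17.1 in Python 3.11.15, with figures by matplotlib 3.10.9. Replicates are separate mice, whose cages the labels do not give. No library was a copy of another of its group (chi-square per gene of at least 10.85). Counts were also simulated for both groups from the means and spread of vehicle mice of Day 1, with 200 genes changed 4-fold up or down. With the library sizes of the irradiation comparison on Day 1, edgeR recovered 192 among 24471 genes, with 14 false calls. With those of the 200 mg/kg comparison on Day 1 it recovered 188 among 24569, with 11 false calls. Far more genes passed in the comparisons themselves, so these runs do not show how scaling and calls fare there.

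The 10 members, the marker lists and the 42 pathway genes were chosen with earlier results of these data known. All members are named, pathway genes only where they passed the test, and the 5 genes most like Il1b, Il1rn and Il1r2. Fits with DESeq2 size factors, total counts, other filters, all 60 mice, without mice over 100 CPM of Alb, and without each mouse in turn were the alternatives, and a term for odd or even animal numbers was added after the data were seen.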

Additional observations from a re-analysis of the deposited data

Results flagged for a closer look

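In 8 of the 100 sets of 6 mice (10 genes in 10 groups), 1 mouse lay far from the others, where chance alone marks about 1 in 20. Mouse 51, with the most Alb of all mice, was low for Il1r2 among irradiated vehicle mice at 11.6 CPM, the others lying from 31.3 to 54.6. Mouse 17 was high for Il1rap among vehicle mice of Day 0 at 59.0 CPM (others 13.5 to 17.3), and mouse 21 was high for it at 200 mg/kg on Day 0 at 20.5 CPM (others 11.8 to 13.8). Both also had over 100 CPM of Alb. Mouse 1, likewise, was low for Il1rn at 50 mg/kg on Day 0 at 4.10 CPM (others 5.78 to 6.05). The other 4 mice had no such level of Alb. Mouse 28 was low for Il1r2 among vehicle mice of Day 1 at 1.72 CPM (others 2.80 to 3.49). Mouse 8 was low for Nlrp3 at 100 mg/kg on Day 0 at 10.6 CPM (others 12.6 to 13.9). Mouse 19 was high for Casp4 at 200 mg/kg on Day 0 at 7.19 CPM (others 5.46 to 5.85). Mouse 47 was low for Gsdmd at 200 mg/kg on Day 1 at 1.63 CPM (others 7.09 to 13.6).

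The effect of BIO 300 differed between Day 1 and Day 0 for 18 of 30 members and doses by the test of the difference itself (edgeR, TMM), given as Day 1 effect less Day 0 effect on the log2 scale. At 50 mg/kg it was 0.81 for Il1rn, 0.57 for Nlrp3, -0.69 for Casp1, -0.84 for Casp4 and -0.49 for Gsdmd. At 100 mg/kg it was 1.23 for Il1b, 1.93 for Il1rn, 0.82 for Il1r2, -1.44 for Pycard, -1.15 for Casp1, -0.70 for Casp4 and -1.54 for Gsdmd. At 200 mg/kg it was 0.85 for Il1b, 1.24 for Il1rn, -1.25 for Pycard, -1.01 for Casp1, -0.85 for Casp4 and -1.08 for Gsdmd. With total counts the sign turned for Il1rn and Nlrp3 at 50 mg/kg, Il1b and Il1r2 at 100 mg/kg, and Il1b and Il1rn at 200 mg/kg.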

How the results depend on the processing

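Of 170 log2 fold changes of members, 169 changed neither their call nor the sign of a called value with DESeq2 size factors, 167 with filterByExpr, 165 without a filter, 160 of 166 with DESeq2, 156 without the mice over 100 CPM of Alb, 151 in the fit of 60 mice and 169 with a term for odd or even animal numbers, an alternative chosen after seeing the data, which lost Il1b at 200 mg/kg on Day 1 (0.50, adjusted p = 0.0549). With total counts 124 changed neither, 6 lost and 20 gained a call, and 20 called in either fit turned. Values that passed in neither fit also changed sign, 25 with total counts, 18 without the mice over 100 CPM of Alb and at most 2 under each other setting. With total counts the turned log2 values were 0.20 for Il1b, 0.61 for Il18 and 0.28 for Nlrp3 at 50 mg/kg on Day 0. On Day 1 they were -0.58 for Il1b, -0.0558 for Il1rn and -1.03 for Il1r2 at 100 mg/kg and -1.01, -0.51 and -1.13 at 200 mg/kg. For the change between days they were -0.21 for Il1rn and -0.44 for Nlrp3 at 50 mg/kg, -0.25 for Il1b, -0.79 for Il1r2, -1.26 for Il1rap and -1.16 for Nlrp3 at 100 mg/kg, and -0.46 for Il1b, -0.0276 for Il1rn, -1.06 for Il1r2, -1.01 for Il1rap and -1.15 for Nlrp3 at 200 mg/kg. The cause was not tested beyond the shift of the median of all genes.

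Members passing fell to 0 in the fit of 60 mice for 50 mg/kg on Day 0 and for its change between days. With DESeq2 they were 2 for 50 mg/kg on Day 1 and 2 for vehicle Day 1 against Day 0, beside the shares of genes given above. The drug by irradiation interaction gave 6 with total counts, 3 without the mice over 100 CPM of Alb and 4 in the fit of 60 mice. The shares of all genes are given above with these counts. Without the mice over 100 CPM of Alb, 9 rather than 17 of 52 ratio tests passed. The cause was not tested, and fewer mice raise the smallest exact p. Leaving out each mouse gave 6 to 8 members for irradiation on Day 1, 3 to 4 for 50 mg/kg on Day 0, 6 to 8 for 100 mg/kg and 4 to 8 for 200 mg/kg on Day 1, and 0 between the irradiated groups. No paired analysis was possible because the labels give each animal its own number, shared by no other group.

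Among values that passed with either list, those turned against Csf3r and Cxcr2 in place of the neutrophil list were -0.26, -0.53 and -0.45 for Il1b, Il1rn and Nlrp3 after irradiation against vehicle Day 1, and -0.24 for Il1b and -0.54 for Nlrp3 against Day 0. For irradiated 200 mg/kg mice they were -0.46, -0.39 and -0.36 for Il1b, Il1rn and Nlrp3 against vehicle Day 1, and -0.34, -0.54 and -0.56 for Il1r2, Il1rap and Nlrp3 against 200 mg/kg Day 1. For 100 mg/kg on Day 1 they were 0.59 for Il1r2 and 0.20 for Nlrp3, and at 200 mg/kg 0.20 for Nlrp3. Against the monocyte list they were 0.55, 0.15, 1.25 and 0.88 for Il18, Casp1, Casp4 and Gsdmd after irradiation against vehicle Day 1. Against Day 0 they were 2.28, 0.20, 0.23, 1.39 and 0.82 for Il1rn, Il18, Casp1, Casp4 and Gsdmd. At 100 mg/kg on Day 1 they were 0.74, 0.10, 0.0690 and 0.36 for Il1r2, Il1rap, Il18 and Nlrp3, at 200 mg/kg 0.0190 for Il1rap and 0.23 for Nlrp3, and for Gsdmd -0.0484 at 100 mg/kg on Day 0 and -0.0625 between the vehicle days. For irradiated 200 mg/kg mice against 200 mg/kg Day 1 they were 1.86, 1.56, 0.22, 0.55, 1.33 and 1.48 for Il1b, Il1rn, Il18, Casp1, Casp4 and Gsdmd, and against vehicle Day 1 0.14, 1.09 and 0.64 for Il18, Casp4 and Gsdmd. Depth limits Il18 most.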
